A study of Mus musculus with 72 samples.

Results

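The Notch genes followed here are 10 members of 45321 genes with a matched transcript, chosen by name: the ligands Dll1, Dll3, Dll4, Jag1 and Jag2, the receptor Notch1, the receptor-modifying enzyme Lfng, and the targets Hes1, Hes5 and Hey1. For each, the values are those of its most counted transcript, which was also its longest, and all 10 passed the filter on low counts. Poly(A) RNA of 18 biological samples of mouse embryonic stem cells on the way to neuroectoderm was sequenced. The question was how loss of Nup133, a subunit of the Y-complex that forms a scaffold of the nuclear pore, alters gene expression at each stage.

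Controls were 2 biological replicates of HM1 (Nup133+/+, 40 chromosomes, XY) and 1 of line 1A4 (Nup133+/+, Sox1gfp/+, 40 chromosomes, XY), which was derived from a blastocyst. Lines without functional Nup133 were 14 (Nup133-/-, 40 chromosomes, XY) and 19 (Nup133-/-, likely 40 chromosomes, XY), both made from HM1 with CRISPR/Cas9, and the blastocyst-derived line 319 (Nup133merm/merm, Sox1gfp/+, 42 chromosomes, XX with an extra chromosome 8 and 12). Day 0 cells came from serum with leukemia inhibitory factor (LIF), after the fibroblast feeders had been removed by differential plating. Day 2 cells had spent 2 days in N2B27 medium, which lacks LIF, and those of day 3 a further 24 h with 1 µM all-trans retinoic acid. Each group of genotype and day thus had 3 samples. A knockout line was sampled once per day, so a property of a line and an effect of the genotype are only partly separable, and 1A4 and 319 also differ in sex chromosomes and ploidy.

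The smallest library, line 19 at day 2, had 16.47 M gene counts and the largest, line 14 at day 3, had 54.39 M. Nup133 itself lay between 180.0 and 323.0 counts per 1000000 counts (CPM) in the control samples and between 14.3 and 37.1 CPM in the knockout samples. Summed markers of pluripotent cells were 4600 to 6180 CPM at day 0 and 153 to 777 CPM at day 3. Markers of neural progenitors were 50.6 to 167 CPM at day 0 and 326 to 952 CPM at day 3. Line 19 at day 2, the sample with the fewest counts, stood apart from the other day 2 samples on the second principal component (-110.8 against -57.3 to -35.3). Line 319 at day 2 stood apart on the first (-25.2 against 6.3 to 16.8), and had the highest sum of pluripotency markers of that day (2020 against 1140 to 1520 CPM). In bulk samples, fewer cells that express a gene and less RNA per cell cannot be told apart.

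Notch signalling works between touching cells. A Delta or Jagged ligand on one cell binds a Notch receptor on the next, the receptor is cut, and its intracellular part joins RBPJ and Mastermind proteins on DNA and switches on Hes and Hey repressors. In the developing nervous system these repressors hold progenitors back from becoming neurons, and Lfng, a Golgi glycosyltransferase, adds sugar to the Notch receptor and so alters which ligand activates it.

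The promoter windows of Hes5 and Lfng are printed because both genes were among those that rose at day 3 and because, of the members' windows, only these held the RBPJ core. Windows were taken from RefSeq on GRCm38.p6 and span 250 bases before to 50 bases after a transcript start. The table matched 8 of the 10 members (Hes1 and Hey1 were not matched) with 9 windows, 2 of them for Dll1. Printed below, 5′ to 3′ on the gene's strand, are the bases before the start in both RefSeq and GENCODE, which is chr4:154960673-154960922 (plus strand) for Hes5 and chr5:140607091-140607319 (plus strand) for Lfng. Capitals mark the RBPJ core TGGGAA, read TTCCCA on the opposite strand, and the E-box CAGCTG, a letter sequence bound by proneural factors that reads the same on both strands.
Hes5: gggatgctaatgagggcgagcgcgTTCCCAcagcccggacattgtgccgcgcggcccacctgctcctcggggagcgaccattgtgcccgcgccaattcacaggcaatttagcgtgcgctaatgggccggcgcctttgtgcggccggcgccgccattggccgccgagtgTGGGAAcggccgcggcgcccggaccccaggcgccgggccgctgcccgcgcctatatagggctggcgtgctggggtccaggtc
Lfng: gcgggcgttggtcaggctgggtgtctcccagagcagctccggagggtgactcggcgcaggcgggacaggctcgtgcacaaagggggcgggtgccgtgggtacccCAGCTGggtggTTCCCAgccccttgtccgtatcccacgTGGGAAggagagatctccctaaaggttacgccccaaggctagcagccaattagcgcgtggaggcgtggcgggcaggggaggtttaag
Each of these windows held the RBPJ core 2 times, once on each strand. Distances are counted from the RefSeq start, which for Lfng lies beyond the end of the printed stretch. In Hes5 the copies began 226 and 82 bases before that start, and in Lfng 135 and 108 bases before it. Lfng also held CAGCTG 146 bases before the RefSeq start, and another copy beginning 1 base after the first transcribed base of the RefSeq model, outside the printed stretch. No copy overlapped another motif. Of 32851 windows of this length, 25.6% held TGGGAA at least once and 3.79% held it 2 times or more, while CAGCTG occurred in 16.3%. CAGCTG was also found once each in Dll3, Jag1 and the window of Dll1 farther from the gene body. The retinoic acid receptor half-site AGGTCA, searched on both strands and present in 16.3% of all windows, was found in the other window of Dll1. These are matches of letters and not measured binding.

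Below, levels are CPM scaled with TMM, values in parentheses are in the order HM1 replicate 1, HM1 replicate 2 and 1A4 for controls and 14, 19 and 319 for knockout lines, and ± is the SD over 3 samples for a mean and the standard error for a log2 fold change. Differences were tested with edgeR's quasi-likelihood test with a term for background (HM1-derived or blastocyst-derived), with Benjamini-Hochberg adjustment over 18273 genes. Called means an adjusted p under 0.05. Groups without overlap are those where all samples of 1 group lay above all samples of the other. The share of all genes without overlap is not given here, so absence of overlap describes the samples and is not a test.

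**Figure D1:**
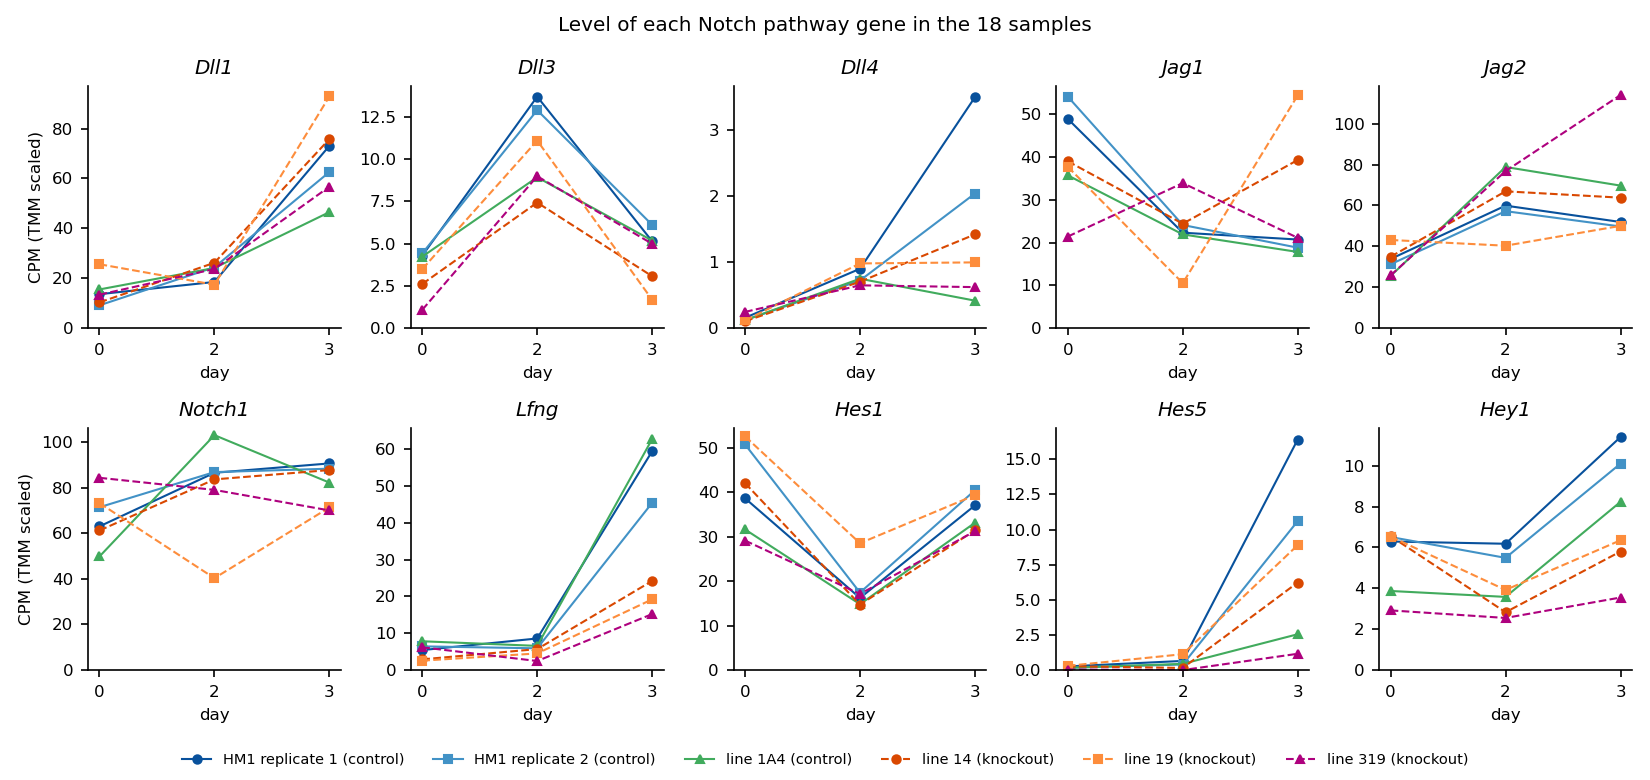
Level of the 10 Notch genes in CPM (linear axes from 0) at day 0, 2 and 3. Each line joins the samples of 1 cell line or HM1 replicate, solid for controls and dashed for knockout lines; Lfng at day 3 lay between 45.4 and 62.7 CPM in controls and between 15.2 and 24.2 CPM in knockout lines.

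Lfng and Hey1 were lower in the knockout lines at day 3, and no other member was called between genotypes at any day. Lfng (chr5:140607320-140615545, 8 exons) was at 59.4, 45.4 and 62.7 CPM in the day 3 controls and at 24.2, 19.2 and 15.2 CPM in the knockout lines. The lowest control was above the highest knockout line. The means were 55.8 ± 9.18 and 19.5 ± 4.5 CPM, a 2.84-fold lower level (log2 -1.5 ± 0.33, adjusted p = 0.019, edgeR). Hey1 (chr3:8663359-8667256, 5 exons), a Hes-related repressor, was at 11.4, 10.1 and 8.23 CPM in the controls and at 5.8, 6.35 and 3.55 CPM in the knockout lines, again without overlap. The difference was 1.94-fold (log2 -0.96 ± 0.2, adjusted p = 0.015). These 2 of 10 members compare with 5.2% of all genes called in either direction at day 3 and 2.45% called lower. At an unadjusted p under 0.05, edgeR gave 3 members (Lfng, Hey1 and Jag1), where 21.9% of all genes had such a p. DESeq2 called Lfng and Hey1 too, and 11.3% of all genes. The median log2 fold change over the members was -0.46 at day 3, against 0.02 over all genes tested.

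Both calls were lost without any 1 of the controls. Without HM1 replicate 1, HM1 replicate 2 or 1A4 in turn, the adjusted p was 0.13, 0.11 and 0.092 for Lfng and 0.13, 0.11 and 0.089 for Hey1. Calls fell over all genes too, to 0.2%, 0.0919% and 1.87% in these fits, against 5.2% with all samples. Without line 14, Hey1 had an adjusted p of 0.051, and without the background term 0.14, where 2.49% and 2.82% of all genes were called. Over all 16 alternatives the log2 fold change stayed between -1.71 and -1.28 for Lfng and between -1.06 and -0.82 for Hey1, and the call was kept in 13 and 11 of them.

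Measured within its own background, Lfng was lower in every knockout line at every day. Against its controls, log2 CPM at day 3 differed by -1.1 in line 14, -1.43 in line 19 and -2.04 in line 319. At day 0 the differences were -1.01, -1.19 and -0.34, and at day 2 they were -0.32, -0.65 and -1.4. The genotype difference over all lines was not called at day 0 (log2 -0.76 ± 0.34, adjusted p = 0.44) or day 2 (log2 -0.71 ± 0.34, adjusted p = 0.25). At day 0, Lfng was called (adjusted p = 0.026) only where line 319 was left out. At day 2 the controls (8.58, 5.91 and 6.57 CPM) and the knockout lines (5.7, 4.52 and 2.46 CPM) did not overlap. The change of the genotype difference from day 2 to day 3 was not called for Lfng (log2 -0.79 ± 0.47, adjusted p = 0.59).

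Hey1 was close to its HM1 controls at day 0 in lines 14 and 19 (log2 differences of 0.03 and 0.03) and below 1A4 in line 319 (-0.4). At day 2 they were -1.03, -0.56 and -0.48, and at day 3 -0.88, -0.75 and -1.2. All 3 lines were thus below their controls at days 2 and 3. The day 2 difference (3.1 ± 0.724 against 5.08 ± 1.35 CPM, log2 -0.7 ± 0.21) had an adjusted p of 0.093; it was called with DESeq2 (adjusted p = 0.011) and without line 319 (adjusted p = 0.038).

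**Figure D2:**
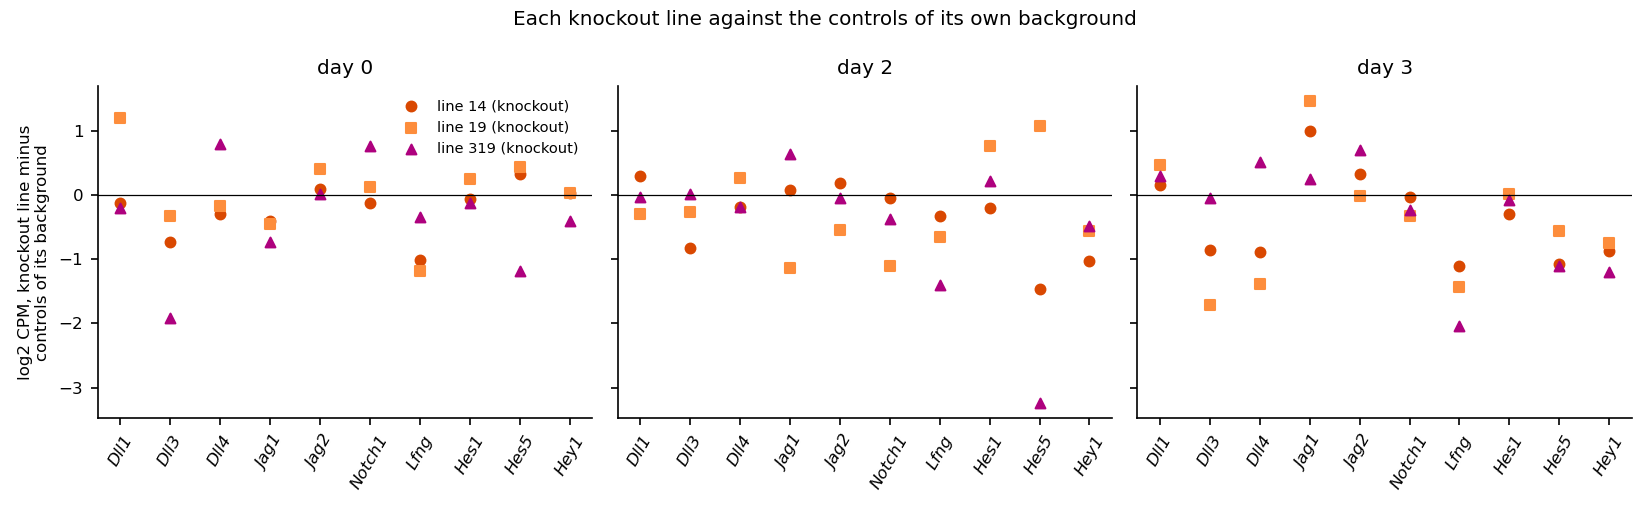
Difference in log2 CPM between each knockout line and the controls of its own background (HM1 mean for lines 14 and 19, 1A4 for line 319) for the 10 members at each day. Lfng lies below 0 in the 3 lines on each day, and Hey1 does so at days 2 and 3; Dll4 at day 3 is at -0.89, -1.38 and 0.52.

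Of other cell types that the cultures could hold, the summed markers of endothelium (7 genes), where Hey1 is also expressed, were 28.5 to 49.3 CPM in the day 3 controls and 10.4 to 28.8 CPM in the knockout lines. Of its 6 tested genes 5 had lower values in the knockout lines and 1 was called, Kdr (log2 -1.98 ± 0.38, adjusted p = 0.011), while Tek had a log2 fold change of 0.24 and was not called. The untested Emcn was at 0 in the knockout lines. Pecam1, the most abundant of the 7 genes, was at 27.3 ± 8.04 CPM in controls against 11.5 ± 7.96 CPM and was not called (adjusted p = 0.072). In the day 0 controls Pecam1 was at 58.4 CPM and the sum was 75 to 99 CPM, so the sum is not particular to endothelium. Feeder fibroblast markers (8 genes) were 168 to 256 CPM against 107 to 172 CPM. Of 7 tested, Acta2 (69.5 ± 18.5 against 7.33 ± 4.15 CPM, log2 -3.45, adjusted p = 0.0017) and Postn (2.54 ± 1.41 against 0.243 ± 0.0341 CPM, log2 -3.38, adjusted p = 0.0054) were called lower, whereas Col3a1 was at 14.6 against 32.6 CPM and not called (adjusted p = 0.082). The untested Lum was under 0.1 CPM in the knockout lines. Presomitic mesoderm markers (7 genes), a tissue where Lfng cycles, were 7.29 to 7.68 CPM against 2.95 to 6.65 CPM. Msgn1, which defines that tissue, was under 0.1 CPM in the samples of both genotypes, and Mesp1 in the knockout lines; none of 5 tested was called. Neural progenitor markers (7 genes) were 326 to 386 CPM against 387 to 952 CPM. Of 7 tested, 5 had higher values in the knockout lines and 2 lower ones, Sox3 (log2 -0.45) and Zfp521 (-0.42). Only Pax6 was called, as higher (log2 2.25 ± 0.42, adjusted p = 0.012), while Sox1 had a log2 fold change of 0.16. Neuron markers (6 genes) were 142 to 163 CPM against 123 to 170 CPM. Of these, 3 were higher and 3 lower, and only Elavl4 was called (log2 -1.64 ± 0.36, adjusted p = 0.021). Primitive endoderm markers (6 genes) were 52.6 to 59.8 CPM against 61.4 to 65.9 CPM, and only Gata4 was called (1.36 ± 0.31, 0.023). Pluripotency markers (7 genes) were 474 to 567 CPM against 153 to 777 CPM, and only Tdgf1 was called (-2.55 ± 0.63, 0.041). The part of these cell types in the differences of Lfng and Hey1 was not tested.

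At day 0, none of the 10 members was called between genotypes, where 0.854% of all genes were, and at day 2 none was called against 1.6%. At an unadjusted p under 0.05, edgeR gave 2 members at day 0 (Dll3 and Lfng) and 1 at day 2 (Hey1), where 10.6% and 20.4% of all genes had such a p. DESeq2 called 0 and 1 (Hey1) members, and 3.08% and 7.66% of all genes. The median over the members was 0.01 at day 0 and -0.23 at day 2, with 0.01 and 0.02 over all genes. Neither change of the genotype difference between days was called for any member, with 0.0219% of genes called from day 0 to day 2 and 0.0383% from day 2 to day 3. For these, edgeR gave 1 member (Notch1) and 0 members at an unadjusted p under 0.05, against 7.16% and 8.9% of all genes, and DESeq2 called 0 in both.

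**Figure D3:**
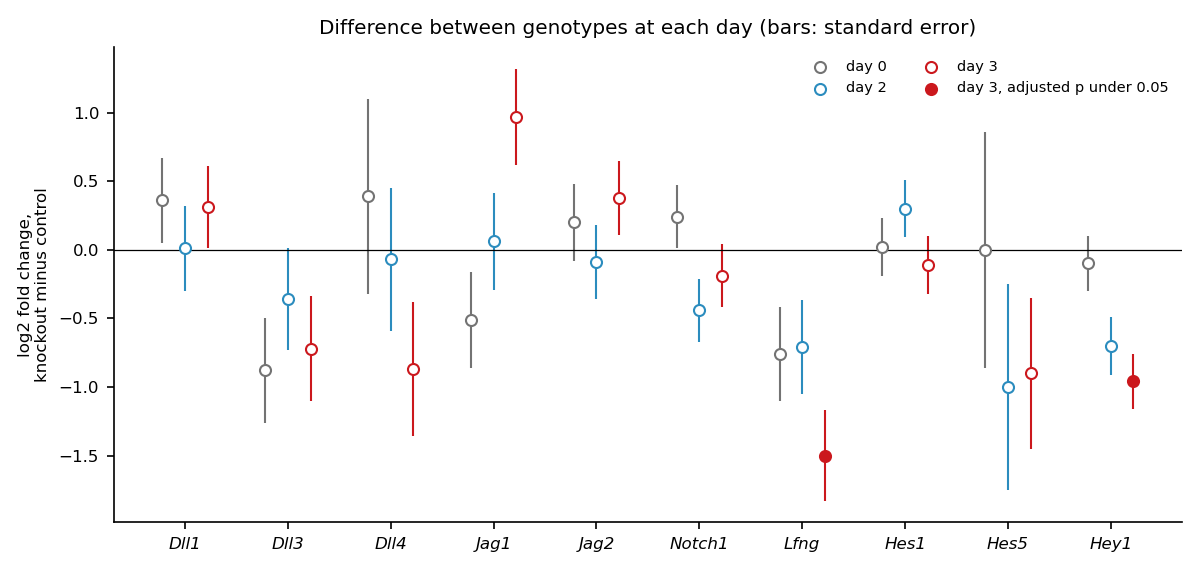
Log2 fold change of knockout against control for the 10 members at day 0, 2 and 3, with the standard error as bars. Filled points have an adjusted p under 0.05, which holds for Lfng (-1.5) and Hey1 (-0.96) at day 3.

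Among the ligands, the largest positive difference at day 3 was that of Jag1 (chr2:137081456-137116644, 26 exons), which signals through the same receptors as the Deltas. The controls were at 20.7, 18.8 and 17.8 CPM and the knockout lines at 39.3, 54.4 and 21.1 CPM. The groups did not overlap, but line 319 exceeded the highest control only narrowly. The log2 fold change was 0.97 ± 0.35 with an adjusted p of 0.12. It was called in 4 of 16 alternatives, with HM1-derived lines only (adjusted p = 0.048), day 3 fitted alone (0.038), and without line 319 (0.016) or line 19 at day 2 (0.018). Own-background differences were 0.99, 1.46 and 0.25 in lines 14, 19 and 319, and the difference between backgrounds was not called (adjusted p = 0.67).

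Jag1 was not higher at the earlier days. At day 0 it was at 48.9, 54.1 and 35.7 CPM in the controls and 39.0, 37.7 and 21.4 CPM in the knockout lines, and each line was below its own controls (-0.4 to -0.74 on the log2 scale). That difference was not called (log2 -0.51 ± 0.35, adjusted p = 0.71). At day 2 the knockout lines spread widely, at 24.4, 10.5 and 33.9 CPM, around controls at 22.3, 24.1 and 21.9 CPM.

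Dll3 (chr7:28293553-28302238, 9 exons), a divergent Delta that acts inside the cell and does not activate Notch on neighbours, was lower in the knockout lines at day 0 without overlap. The controls were at 4.29, 4.42 and 4.23 CPM and the lines at 2.61, 3.49 and 1.08 CPM. At day 3 the controls were at 5.14, 6.11 and 5.18 CPM and the lines at 3.07, 1.68 and 4.99 CPM, also without overlap. Neither was called (log2 -0.88 ± 0.38, adjusted p = 0.41, and -0.72 ± 0.38, adjusted p = 0.29), although Dll3 was called at day 3 with HM1-derived lines only (adjusted p = 0.044) and without line 319 (0.017). At day 2 the groups overlapped.

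Dll4 (chr2:119325784-119335962, 11 exons), the ligand best known from vessel sprouting, was the lowest member per transcript length at day 3. It was at 3.5, 2.04 and 0.416 CPM in the day 3 controls and at 1.42, 0.996 and 0.621 CPM in the knockout lines. The low value of 1A4 put the control range across that of the knockout lines. Lines 14 and 19 were below HM1 (log2 differences of -0.89 and -1.38), while line 319 was above 1A4 by 0.52. This contrast between backgrounds had an adjusted p of 0.43, and the genotype difference was not called (log2 -0.87 ± 0.49, adjusted p = 0.32).

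Dll1 (chr17:15367354-15375976, 11 exons), the main Delta of neural progenitors, and Jag2 (chr12:112907819-112929776, 26 exons) were not called between genotypes. Dll1 at day 3 was at 73.1, 62.6 and 46.5 CPM in controls and 75.8, 92.9 and 56.7 CPM in the knockout lines. Each line was above its own controls, by 0.16 to 0.46 on the log2 scale, but the groups overlapped (log2 0.31 ± 0.3, adjusted p = 0.61). Jag2 at day 3 was at 51.9, 49.7 and 69.7 CPM against 63.8, 50 and 114 CPM. The high value belonged to line 319, which carries an extra chromosome 12, where Jag2 lies. At the earlier days Jag2 in line 319 was at 25.8 CPM (day 0) and 76.8 CPM (day 2). In 1A4 it was at 25.5 and 78.8 CPM. The part of the extra copy was not tested.

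The receptor Notch1 (chr2:26457903-26503822, 34 exons) was at 63.0, 71.4 and 49.8 CPM in the day 0 controls and at 61.2, 73.2 and 84.3 CPM in the knockout lines. At day 2 the controls were at 86.5, 86.8 and 103 CPM and the lines at 83.6, 40.3 and 79.0 CPM. The day 2 groups did not overlap, line 19 being far below the rest, and the difference was not called (log2 -0.44 ± 0.23, adjusted p = 0.28). At day 3 it was at 90.6, 88.3 and 82.2 CPM against 87.7, 71.3 and 70.0 CPM, with overlap.

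Of the target genes besides Hey1, Hes1 (chr16:30065340-30067796, 4 exons), a repressor of proneural genes that many signals induce, was at 37.0, 40.4 and 33.1 CPM in the day 3 controls and at 31.4, 39.3 and 31.2 CPM in the knockout lines (log2 -0.11 ± 0.21, adjusted p = 0.8). The groups overlapped at all 3 days. Hes5 (chr4:154960923-154962371, 3 exons), the Hes gene most closely tied to Notch in neural progenitors, was at 16.4, 10.6 and 2.55 CPM against 6.23, 8.89 and 1.16 CPM at day 3. Within their backgrounds the 3 lines were lower (log2 differences of -0.56 to -1.1), yet the groups overlapped because 1A4 was low (log2 -0.9 ± 0.55, adjusted p = 0.37). With day 3 fitted alone, Hes5 was called (adjusted p = 0.041).

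Hes5 and Hey1 also differed between the genetic backgrounds. Over all days, the blastocyst-derived lines 1A4 and 319 were below the HM1-derived samples by a log2 difference of -1.94 ± 0.45 for Hes5 (adjusted p = 0.034) and -0.69 ± 0.12 for Hey1 (adjusted p = 0.0084). These 2 of 10 members compare with 4.15% of all genes. At day 3, Hes5 was at 2.55 and 1.16 CPM in 1A4 and 319 and between 6.23 and 16.4 CPM in the 4 HM1-derived samples, so the backgrounds did not overlap. For Hey1 at day 0, 1A4 and 319 were at 3.87 and 2.92 CPM and the HM1-derived samples between 6.29 and 6.55 CPM. At day 2 the backgrounds overlapped for both genes. There 1A4 was above line 14 for Hes5 (0.444 and 0.152 CPM) and for Hey1 (3.58 and 2.83 CPM). They overlapped for Hey1 at day 3 too, with 1A4 at 8.23 CPM and lines 14 and 19 at 5.8 and 6.35 CPM. Lfng was not called between backgrounds (log2 0.08 ± 0.2, adjusted p = 0.87). The Hes5 call was lost without HM1 replicate 1 (adjusted p = 0.14), HM1 replicate 2 (0.05), line 14 (0.097) or line 319 (0.38), and with transcripts added up (0.05). The Hey1 call was lost without HM1 replicate 1 (0.081) or line 319 (0.091). There was a single blastocyst-derived line per genotype, so line and background cannot be told apart. In line 319 at day 2 Hes5 had 0 counts, which allows a level of up to 0.13 CPM. With the Benjamini-Hochberg adjustment, edgeR called no difference between backgrounds in the size of the genotype effect for any member at day 0, 2 or 3, where 0.969%, 0.547% and 0.0219% of genes were called. At an unadjusted p under 0.05 there were 1 (Dll3), 0 and 2 (Dll3 and Dll4) members, against 13.3%, 15.1% and 9.12% of all genes; no other tool was run on this difference.

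**Figure D4:**
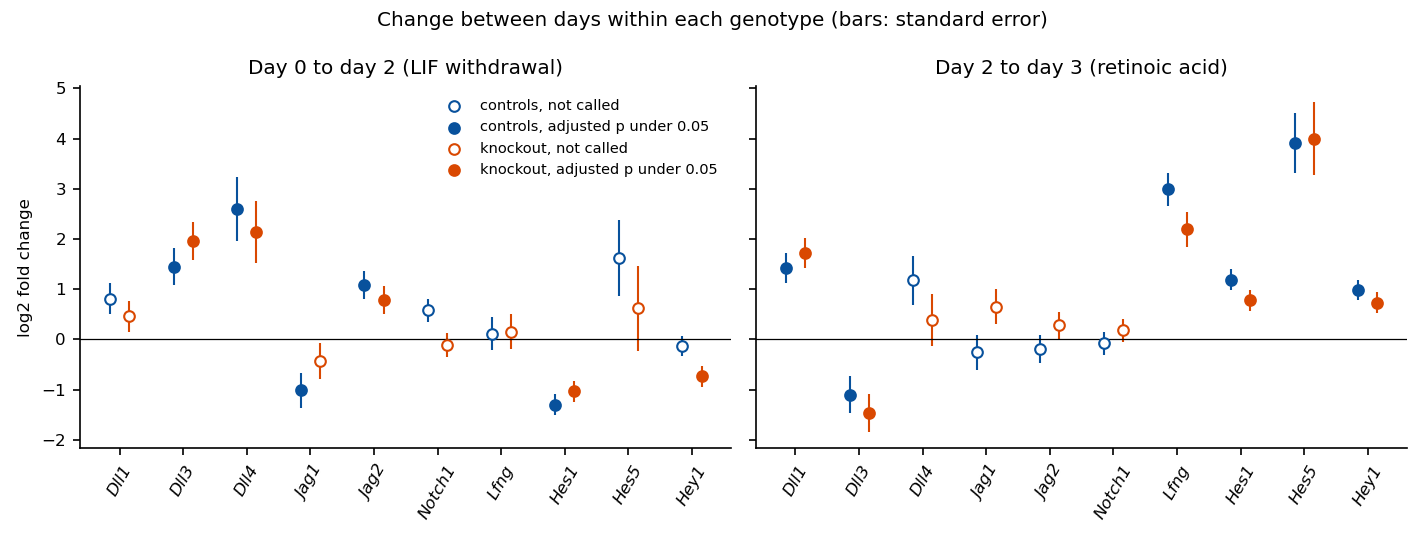
Log2 fold change of the 10 members from day 0 to day 2 and from day 2 to day 3 in controls and knockout lines, with the standard error as bars. Filled points have an adjusted p under 0.05; at the second step Dll1, Lfng, Hes1, Hes5 and Hey1 were higher and Dll3 lower in both genotypes.

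More members were called between days than between genotypes. From day 0 to day 2 in controls, 5 of 10 members were called, against 35.2% of all genes (19.7% higher and 15.5% lower). Dll3 rose (log2 1.45 ± 0.37, adjusted p = 0.0079), as did Dll4 (2.6 ± 0.64, adjusted p = 0.004) and Jag2 (1.08 ± 0.28, adjusted p = 0.0071). Jag1 fell (-1.01 ± 0.35, adjusted p = 0.037) and Hes1 fell (-1.3 ± 0.21, adjusted p = 0.00028). The changes of Dll3 and Hes1 are plain in the single samples. Dll3 went from 4.23 to 4.42 CPM at day 0 to between 8.93 and 13.7 CPM at day 2, and Hes1 from between 31.6 and 50.7 CPM to between 14.8 and 17.4 CPM. Dll4 stayed scarce, at 0.12 to 0.156 CPM and then 0.721 to 0.899 CPM.

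Left-out samples moved several of these calls. The Jag1 call was lost without each control in turn (adjusted p = 0.22, 0.22 and 0.1) and without line 14 (0.071), and with the same line's days treated as a block through a fixed term (0.066), though not with the block in voom (0.019). The correlation within a block that voom used was only 0.00947, so its values, here and below, hardly account for the pairing. The Dll3 call was lost without HM1 replicate 1 (0.11) or 2 (0.089), and the Jag2 call without HM1 replicate 2 (0.05) or 1A4 (0.097). Without line 19 at day 2, 8 members and 46.1% of all genes were called, the other members being Notch1 (0.0032), Dll1 (0.032) and Hes5 (0.038). Without line 319, Notch1 was called too (0.044). With all samples, Notch1 and Dll1 had adjusted p of 0.058 and 0.052 with edgeR, and were called with DESeq2 (0.045 and 0.038) and with the longest transcript (0.047 and 0.048). In that last setting the counts of both genes are the same as in the main fit, and only those of other genes change. The call of Hes1 was kept throughout and so was that of Dll4.

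In the knockout lines 5 of 10 members were called from day 0 to day 2, against 35.9% of all genes (20.8% higher and 15.1% lower). Dll3 (log2 1.96 ± 0.38), Dll4 (2.14 ± 0.61) and Jag2 (0.79 ± 0.28) rose, and Hes1 (-1.03 ± 0.21) and Hey1 (-0.73 ± 0.21) fell, with adjusted p of 0.0013, 0.012, 0.038, 0.0017 and 0.013. Hey1 went from 6.55, 6.53 and 2.92 CPM to 2.83, 3.92 and 2.55 CPM. In the controls it was at 6.29, 6.51 and 3.87 CPM and then 6.18, 5.49 and 3.58 CPM, a step that was not called (log2 -0.13 ± 0.2). The difference between these steps was not called either (log2 -0.6 ± 0.29, adjusted p = 0.71). Without line 14, Hey1 (0.18), Jag2 (0.21) and Dll4 (0.076) were no longer called, and the count was 2, with 20.6% of all genes called. Dll4 was also lost without line 19 (0.093), and Jag2 without any of the controls (0.056 to 0.078), without line 319 (0.15) and with the fixed-term block (0.077; 0.024 with voom). Without line 319, Jag1 (0.0097) and Lfng (0.011) were called in addition, and without line 19 Dll1 was (0.0083).

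Retinoic acid came with the day 3 step. Every day 3 sample had it, so its part and that of the further day in culture cannot be told apart. In controls 6 of 10 members were called at this step, against 21.4% of all genes (12.5% higher and 8.92% lower). Hes5 rose most (log2 3.91 ± 0.6, adjusted p = 0.00062), from 0.652, 0.395 and 0.444 CPM to 16.4, 10.6 and 2.55 CPM. Lfng rose 7.93-fold (2.99 ± 0.33, adjusted p = 2.8e-05), from 8.58, 5.91 and 6.57 CPM to 59.4, 45.4 and 62.7 CPM. These are the genes whose promoter windows are printed above. Dll1 rose from 18.5, 24.4 and 24.1 CPM to 73.1, 62.6 and 46.5 CPM (1.43 ± 0.3, adjusted p = 0.0038). Hes1 (1.19 ± 0.21, adjusted p = 0.001) and Hey1 (0.99 ± 0.2, adjusted p = 0.0024) rose too. Dll3 went the other way (-1.1 ± 0.37, adjusted p = 0.047), from between 8.93 and 13.7 CPM to between 5.14 and 6.11 CPM. Without HM1 replicate 1 the count was 3, with Dll1 (0.11), Hey1 (0.053) and Dll3 (0.32) not called, and 6.78% of all genes were called. Dll3 was also lost without HM1 replicate 2 (0.25), 1A4 (0.13) or line 14 (0.082) and with the fixed-term block (0.076; 0.021 with voom), whereas Dll4 was gained without 1A4 (0.023).

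In the knockout lines 6 of 10 members were called at the day 3 step, against 33.6% of all genes (17.6% higher and 16.0% lower). Hes5 (log2 4.0 ± 0.72, adjusted p = 0.00078), Lfng (2.19 ± 0.34, adjusted p = 0.00029), Dll1 (1.73 ± 0.3, adjusted p = 0.0008), Hes1 (0.78 ± 0.21, adjusted p = 0.012) and Hey1 (0.73 ± 0.21, adjusted p = 0.014) rose, and Dll3 fell (-1.46 ± 0.38, adjusted p = 0.0093). The rise of Hes5 started from 8, 15 and 0 counts in lines 14, 19 and 319 at day 2. Over 16 alternatives its log2 value ranged from 3.27 (without line 14) to 5.6 (without line 19 at day 2), and it was called in each. Lfng went from 5.7, 4.52 and 2.46 CPM to 24.2, 19.2 and 15.2 CPM, a 4.57-fold increase. Every knockout line raised Lfng, but to a day 3 level below that of each control. Jag1 went from 24.4, 10.5 and 33.9 CPM to 39.3, 54.4 and 21.1 CPM and was not called (0.65 ± 0.35, adjusted p = 0.17); line 319 went down while lines 14 and 19 went up. Without line 319 it was called (0.0032). Without line 14, Dll3 (0.052) and Hey1 (0.11) were lost, and Hey1 was just past the threshold without HM1 replicate 1 (0.05).

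Per kilobase of transcript, Hes1 and Lfng were the most abundant members in the day 3 controls, at 25.1 ± 2.51 and 24.2 ± 3.98 CPM per kb. Dll1 (17.0), Jag2 (11.2), Notch1 (9.17), Hes5 (7.72), Hey1 (4.09), Jag1 (3.4), Dll3 (2.09) and Dll4 (0.53) followed. Neighbours in that order overlapped in their sample ranges except Jag2 over Notch1, Jag1 over Dll3 and Dll3 over Dll4. In the knockout lines the order was Hes1 (23.2), Dll1 (21), Jag2 (14.9), Lfng (8.48), Notch1 (8.05), Jag1 (6.82), Hes5 (4.26), Hey1 (2.16), Dll3 (1.24) and Dll4 (0.27), and only Dll3 over Dll4 did not overlap. Exons of Notch1, Dll1, Dll4 and Hes5 overlap exons of genes on the opposite strand, and the strand setting of the counting is not given in the sources used here, so their levels may include reads of those genes.

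Over the 18 samples, the levels of Hes5 and Lfng (r = 0.84), Dll1 and Hes5 (r = 0.82) and Dll1 and Lfng (r = 0.75) went together in log2 CPM, and Dll3 and Hes1 went opposite ways (r = -0.61). These correlations are descriptions over samples that share day and line. The genes with the pattern most like that of Lfng were Vsir (r = 0.957), Capn5 (0.95) and Tfpi2 (0.948), and those most like Hey1 were Sox9 (0.915), Hdhd2 (0.861) and Tnfaip1 (0.849).

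Other Notch pathway genes were read from 5 lists. Between genotypes 2 of their genes were called, both of the list of the nuclear complex and inhibitors (14 genes tested), 1 at day 0 and 1 at day 3, where 0.854% and 5.2% of all genes were called. Maml3, a Mastermind coactivator, was lower in the knockout lines at day 0 (0.929 ± 0.34 against 4.11 ± 1.47 CPM, log2 -2.15 ± 0.33, adjusted p = 0.0054). Fbxw7, which marks the Notch intracellular domain for degradation, was higher at day 3 (52.2 ± 11.2 against 35.0 ± 1.48 CPM, log2 0.57 ± 0.15, adjusted p = 0.043). The day 3 medians of the lists were 0.06 for other receptors and ligands (4 tested), -0.03 for ligand trafficking and receptor processing (17), -0.09 for the nuclear complex, 0.01 for other Hes, Hey and target genes (11) and 0.59 for proneural factors (7), where all genes had 0.02. edgeR called no gene of the other 4 lists between genotypes at any day. In the order above, 1, 2, 2 and 0 of their genes had an unadjusted p under 0.05 at day 0, 0, 2, 3 and 0 at day 2, and 0, 3, 4 and 3 at day 3. Such a p was found for 10.6%, 20.4% and 21.9% of all genes. DESeq2 called 3.08%, 7.66% and 11.3% of all genes at days 0, 2 and 3. In the nuclear complex it called Maml2 and Maml3 at day 0, Maml1 and Snw1 at day 2 and Fbxw7 at day 3. Of the other 4 lists it called none at days 0 and 2, and 2 genes of trafficking and processing (Neurl1a and Poglut1) and 4 other targets (Hes2, Hes3, Id3 and Nrarp) at day 3. Of these, Nrarp, a Notch target that feeds back on the pathway and was singled out after its values were seen, had log2 fold changes of -1.13, -0.89 and -1.16 at days 0, 2 and 3, with adjusted p of 0.22, 0.19 and 0.079.

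Between days, more genes of the same lists were called. From day 2 to day 3 in controls, 6 of 11 other Hes, Hey and target genes were called (5 higher), 5 of 17 genes of ligand trafficking and receptor processing (all higher), 4 of 14 of the nuclear complex (3 higher), 2 of 7 proneural factors (both higher) and none of 4 other receptors and ligands, against 21.4% of all genes. From day 0 to day 2 the counts were 6 of 11 (2 higher), 3 of 17 (all higher), 6 of 14 (4 higher), 2 of 7 (both higher) and 2 of 4 (1 higher), against 35.2%. Examples chosen after their values were seen are Id1, a target of BMP as well as Notch signalling, which was at 22.9, 2.57 and 19.6 CPM in controls at days 0, 2 and 3, and Notch4, which was at 22.9, 2.04 and 3.37 CPM. Rbpj, the DNA-binding partner of Notch, was at 191, 90.6 and 68.6 CPM in controls and at 300.0, 75.4 and 59.8 CPM in the knockout lines; the genotype difference was not called at any of these days (adjusted p = 0.39, 0.6 and 0.73).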

How the data were processed

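The deposited files hold raw counts of reads per Ensembl transcript, 1 file per technical replicate and 72 in all. Per the submitters' processing notes the tools were bcl2fastq 2.17.1.14, STAR 2.4.0k, SAMtools and HTSeq on mm10; the strand setting is not given in the sources used here. Libraries were stranded and poly(A)-selected, per the labels' protocols. The 4 technical files of a sample were added up, having differed by little more than counting error (chi-square per degree of freedom 1.009 to 1.028). Of 110379 transcript identifiers, 108214 matched GENCODE M21 on GRCm38; unmatched ones held 1.44% to 2.46% of counts. A gene was represented by its transcript with the highest total.

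edgeR 4.0.16 (R 4.3.3, limma 3.58.1) fitted 6 groups and a background term with TMM scaling and filterByExpr, with 11 residual degrees of freedom and a biological coefficient of variation of 0.246; the code was tested on simulated data. The model's standard errors use the posterior quasi-dispersion. Alternatives were the longest transcript, added-up transcripts, RLE scaling, no filter, no background term, HM1-derived lines only, DESeq2 1.42.0, each day alone, a replicate block and left-out samples. Samples of different days are paired by line, per the labels, and 16 of 18 correlations of their deviations were over 0.1. The voom block used a consensus correlation of 0.00947, so it hardly accounted for this pairing. Members and lists were chosen with earlier results of these data known. Named were all members, list genes called between genotypes, and the 3 genes most correlated with each member called between genotypes, leaving out unnamed genes and those on chromosomes 8, 12, X and Y. The comparisons of backgrounds were added after seeing the data. Where counts are 0, 3 counts were taken as the limit; this covers counting error only.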

Additional observations from a re-analysis of the deposited data

How the results depend on the processing

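Across the alternatives no called member changed direction. Of the counts of called members, 142 stayed within 1.5 times the main count, 9 were higher and 15 lower. At day 3, 2 members were called between genotypes, where 5.2% of all genes were. With HM1-derived lines only the count was 4 (6.06% of all genes), without the background term 1 (2.82%) and with the day fitted alone 4 (15.1%). Leaving out 1 replicate gave 0 to 4, with 0.0919% to 10.8% of all genes called. At day 2 the count was 0, DESeq2 gave 1, and leaving out 1 replicate gave 0 to 1, as it did at day 0. For the steps between days, leaving out 1 replicate gave 2 to 8 (day 0 to 2) and 3 to 6 (day 2 to 3) in controls. The shares of all genes were then 15.3% to 47.4% and 6.57% to 33.9%. In the knockout lines the counts were 2 to 6 and 4 to 7, against 20.6% to 41.3% and 23.4% to 40.6% of all genes. Without line 19 at day 2, 8 members and 46.1% of all genes were called in controls from day 0 to 2. The background comparison called 2 members (4.15% of all genes), 1 with transcripts added up (3.44%), and 0 to 2 with a replicate left out (0.712% to 12.7%). The difference between backgrounds of the genotype effect at day 2 called 1 member (Hes5) without the filter. The cause of these shifts was not tested. With the replicate block by line, no count moved by over 1.5 times; from day 0 to 2 in controls, Notch1 (0.043) and Dll1 (0.036) were gained with voom and Jag1 (0.066) was lost with a fixed term, as were Dll3 in controls at the day 3 step (0.076) and Jag2 in the knockout lines from day 0 to 2 (0.077). Other lost calls were those of Hey1 without the background term (0.056 in controls at the day 3 step, 0.087 and 0.099 in the knockout lines at both steps) or the filter (0.056, knockout, day 0 to 2), of Jag1 in controls without the filter (0.094) or with transcripts added up (0.055), of Dll3 in controls at the day 3 step with transcripts added up (0.058), and, with HM1-derived lines only, of Jag2 (0.13) and Hes1 (0.071) in the knockout lines. No setting moved the median of all genes by over 0.1 (log2). Low counts limit Dll4 and, before day 3, Hes5.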
